A study of Mus musculus with 18 samples.

Results

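The proteasome subunit mRNAs are the genes with a protein-coding entry whose symbol is Psma, Psmb, Psmc or Psmd followed by a number. This name rule gave 39 of the 47643 genes: 8 Psma and 11 Psmb genes, which encode the rings of the 20S core, and 6 Psmc and 14 Psmd genes, which encode the 19S cap or help to build it. They were measured in total RNA of 5G6GR mouse embryonic stem (ES) cells, a line grown here without feeder cells on gelatin, with serum, leukemia inhibitory factor, puromycin and blasticidin in all samples. In 15 libraries, 10 pg of diluted RNA was copied by RT-RamDA, in which cDNA is made again and again along an RNA template during reverse transcription, and then amplified by 17 cycles of PCR. The 5 primer sets, with 3 libraries each, were random hexamers (N6), not-so-random primers designed to avoid ribosomal RNA (NSR), oligo(dT) (dT), a primer for the poly(A) tails of mRNA, and the mixtures N6dT and NSRdT. The other 3 libraries (bulk, n = 3, also labelled with N6 as primer) were made from 200 ng of RNA after ribosomal RNA removal, with 7 cycles of PCR. The series text speaks of 12 RT-RamDA samples, but 15 have labels and values, and these 15 were used. Separate cultures are not named for the libraries of a group, so a p-value here measures the spread between libraries, which may be technical.

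The proteasome is the protease that degrades proteins tagged with ubiquitin. Its barrel-shaped core holds the proteolytic sites of the beta ring behind the gate formed by the alpha ring, and its cap recognises, unfolds and deubiquitinates substrates before they enter the core. Within the core, and within the cap, the constitutive subunits are present in equal numbers, and high proteasome activity has been described in ES cells.

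Depth, as the total of estimated counts without spike-ins, was 5333546 to 10234690 per library. Levels are given as CPM, estimated counts scaled with TMM factors to 1000000 per library. The 7 ES cell markers were detected in every group and summed to 1622 to 1889 CPM with N6 and NSR, 3109 to 3297 CPM with dT and 2082 to 2645 CPM in bulk. With N6dT and NSRdT they summed to 2131 to 2376 CPM. Single markers differed in direction: 5 of the 7 were estimated lower with N6 and NSR than with dT, and 2 higher. Dppa5a had means of 136.5 CPM with N6 and NSR and 1054 CPM with dT, and Pou5f1 had 206.7 and 120.2 CPM. The 8 primitive endoderm markers summed to 2891 CPM in bulk replicate 2, to 226 and 193 CPM in the other bulk libraries and to 82.1 to 260 CPM in RT-RamDA libraries, and counts of called genes against bulk are also given without that library. The 6 markers of fibroblast feeders summed to at most 8.58 CPM, and the 5 immune markers to at most 4.45 CPM, in any library. Dcn, a fibroblast gene, and Tyrobp, an immune gene, were at 0 in every group.

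The level of the core mRNAs followed the primer, and that of the cap mRNAs less so. Summed over its 19 genes, the core had 497, 506 and 519 CPM with N6 and 615, 551 and 598 CPM with NSR. It had 1365, 1244 and 1271 CPM with dT, 798, 762 and 764 CPM with N6dT, 772, 817 and 767 CPM with NSRdT, and 922, 860 and 871 CPM in bulk. No library made with random primers alone reached the level of any library that contained dT or of any bulk library. The 20 cap genes summed to 1276 ± 110 CPM with N6 (SD, n = 3), 1295 ± 122 with NSR, 1248 ± 25.7 with N6dT, 1238 ± 30.0 with NSRdT and 1283 ± 47.9 in bulk, and to 1720 ± 108 with dT. The ratio of core to cap counts, which no scaling of libraries can change, was 0.364 to 0.439 with N6 and 0.417 to 0.512 with NSR. It was 0.599 to 0.636 with N6dT, 0.607 to 0.675 with NSRdT, 0.686 to 0.693 in bulk and 0.679 to 0.798 with dT, so the libraries of random primers alone lay below all others.

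As a share of all estimated counts, core genes held 0.182% ± 0.00722 with dT, 0.148% ± 0.00378 in bulk, 0.0808% ± 0.00441 with NSRdT, 0.0577% ± 0.000820 with N6dT, 0.0491% ± 0.00221 with NSR and 0.0332% ± 0.000529 with N6 (SD, n = 3). Ribosomal and mitochondrial RNA enter this denominator, and annotated genes of these kinds took from 2.82% of the counts in bulk to 32.8% with N6. With annotated ribosomal RNA, 6 loci that resemble it and mitochondrial genes left out of the total, cap genes held 0.330% with dT and 0.239% to 0.246% in the 5 other groups. On the same denominator the core share still ranged from 0.0950% with N6 through 0.110% with NSR, 0.149% with N6dT, 0.153% with NSRdT and 0.170% in bulk to 0.248% with dT.

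**Figure D1:**
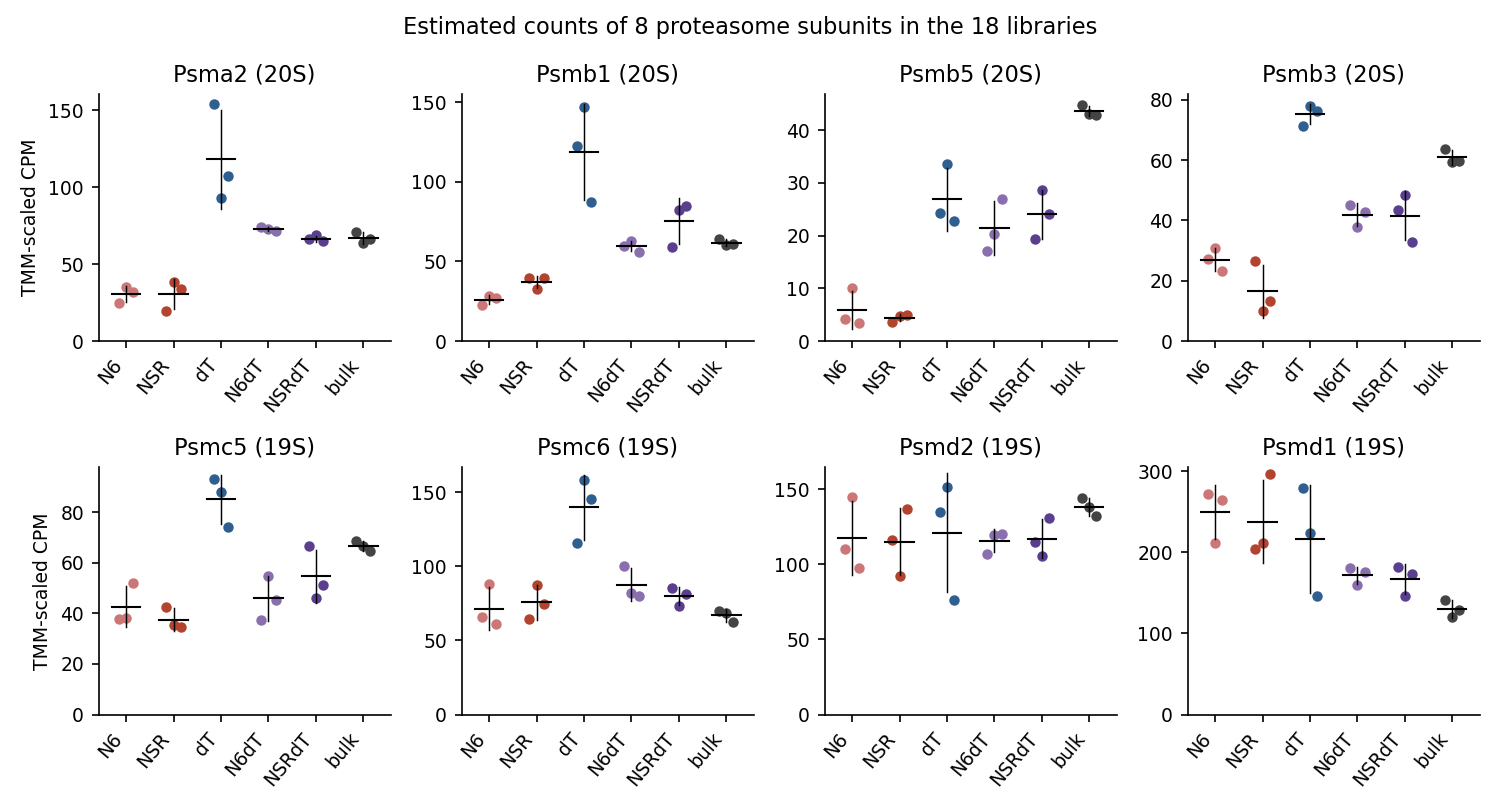
TMM-scaled CPM (vertical axes, each from 0) of 4 core and 4 cap mRNAs in the libraries of the 6 groups (horizontal axes). Points are libraries, horizontal bars are group means and vertical bars are SD (n = 3). Psma2, Psmb1, Psmb5 and Psmb3 were lowest with N6 and NSR, while Psmd2 had similar ranges in all primer sets.

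The first comparison asks how priming along the RNA differs from priming at the poly(A) tail. It sets the mean of the N6 and NSR groups against dT in a model of the 15 RT-RamDA libraries, tested with edgeR's quasi-likelihood test and Benjamini-Hochberg adjustment over 15682 genes, and a gene passes at an adjusted p under 0.05, here and below. Of 39 proteasome genes 37 could be tested, as Psmb8 and Psmb9 had too few counts in this and every other comparison. Random primers gave lower levels of 18 of these 37 genes and higher levels of none (DESeq2 called 20 lower and none higher, and none was higher at an unadjusted p under 0.05). Of all genes tested, 7.54% were lower and 9.54% higher. The median log2 fold change was -0.72 over the proteasome genes and 0.12 over all genes. The core accounts for 12 of the 18 calls, with 12 of 17 tested core genes lower and a median of -1.48. In the cap 6 of 20 were lower, with a median of -0.63.

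Psma2, an alpha-ring subunit, had 24.9, 35.2 and 31.8 CPM with N6, 19.8, 38.6 and 33.9 CPM with NSR, and 154, 92.7 and 107 CPM with dT. Psmb1, a structural subunit of the beta ring, had 22.8, 28.3 and 26.8 CPM with N6, 39.5, 32.6 and 39.3 CPM with NSR, and 122.5, 147 and 87.2 CPM with dT. For both genes every random-primed library lay below every dT library. The log2 fold change of random primers against dT was -1.94 (SE 0.22, adjusted p = 8.98e-06) for Psma2 and -1.93 (SE 0.20, adjusted p = 2.51e-06) for Psmb1. The alpha-ring subunits Psma5 (-1.79), Psma6 (-1.59), Psma7 (-1.54), Psma1 (-1.48) and Psma4 (-0.64) were also lower, as were the structural beta-ring subunits Psmb3 (-1.83) and Psmb4 (-0.97). Psma3 (-0.53) and Psmb2 (-0.59) did not pass, with adjusted p-values of 0.0856 and 0.128. The calls of Psma4 and of the ATPase Psmc4 each ended in 7 of the 9 fits that left out 1 of the libraries compared. The libraries left out in those fits came from N6, NSR and dT alike, so these calls are not stable.

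The 3 constitutive proteolytic subunits were all lower with random primers. Psmb6, which carries the caspase-like site, had 19.4, 19.01 and 27.4 CPM with N6, 30.8, 18.3 and 37.3 with NSR, and 51.5, 66.7 and 57.2 with dT, a log2 fold change of -1.21 (SE 0.28, adjusted p = 0.00742). Psmb7, which carries the trypsin-like site, had 59.3, 54.2 and 37.9 CPM with N6, 53.2, 40.7 and 33.3 with NSR, and 83.4, 68.8 and 77.2 with dT, a log2 fold change of -0.72 (SE 0.21, adjusted p = 0.0290). The ranges of both genes were apart between random primers and dT. The Psmb7 call ended without N6 replicate 3, without NSR replicate 2 or 3, or without dT replicate 1 or 3, and its highest adjusted p over 16 alternatives was 0.0825. Exons of Psmb7 overlap 253 bases of Nek6 on the other strand, and the strand used in counting is not given, so reads of that stretch cannot be told apart.

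Psmb5, which carries the chymotrypsin-like site and is the main target of proteasome inhibitor drugs, had the largest difference of the core among the genes that passed. It had 4.12, 10.1 and 3.42 CPM with N6, 3.68, 4.68 and 4.99 with NSR, and 24.2, 33.6 and 22.7 with dT. The log2 fold change was -2.38 (SE 0.39, adjusted p = 0.00042). This value depends on how reads were divided between Psmb5 and a copy, the processed pseudogene Gm3375 on chromosome 7 (GRCm38, chr7:3181093-3181888). Over 795 bases of the Psmb5 mRNA, Gm3375 is 98.87% identical, with 8 substitutions and 1 inserted base, and the longest identical run is 194 bases. A matching stretch of both is shown, from base 279 to base 337 of the Psmb5 mRNA in GENCODE vM21. It was chosen as the stretch of its size with the most differences, so other stretches hold as few or fewer (capitals mark the bases that differ).
Psmb5: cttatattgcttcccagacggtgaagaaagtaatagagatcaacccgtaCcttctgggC
Gm3375: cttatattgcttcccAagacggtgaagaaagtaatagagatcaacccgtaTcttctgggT

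Gm3375 took 20.1% of the summed estimate of Psmb5 and its copies in bulk, 39.3% with N6dT, 45.8% with NSRdT, 55.0% with dT, 57.9% with N6 and 70.7% with NSR. Psmb5 summed with its copies had 17.3, 14.6 and 9.87 CPM with N6, 15.3, 16.5 and 13.8 with NSR, and 54.5, 71.1 and 53.3 with dT. The summed locus was again lower with random primers, with a log2 fold change of -2.03 (SE 0.25, adjusted p = 2.07e-05). Whether Gm3375 itself is transcribed in these cells was not tested.

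In the cap, the ATPases, which unfold substrates and thread them into the core, had a median of -0.74, with 4 of 6 lower (Psmc5 -1.09, Psmc6 -0.92, Psmc1 -0.77 and Psmc4 -0.71). Psmc5 had 37.7, 38.2 and 51.9 CPM with N6, 42.8, 35.4 and 34.6 with NSR, and 93.1, 88.0 and 74.3 with dT (SE 0.21, adjusted p = 0.00161). Of the 14 other cap genes, 2 were lower: Psmd6 (-1.07) and Psmd7 (-0.83), both of the lid that covers the substrate entry. Psmd4, a ubiquitin receptor, had 52.0, 42.5 and 37.6 CPM with N6, 41.1, 43.6 and 33.7 with NSR and 75.1, 63.4 and 50.7 with dT, and did not pass (-0.59, adjusted p = 0.0684). Psmd14, the deubiquitinase of the lid, had 77.2, 29.5 and 44.7 CPM with N6, 67.0, 77.6 and 72.8 with NSR and 92.3, 90.5 and 105 with dT. Its ranges were apart, but at -0.66 it did not pass (adjusted p = 0.0948).

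The large scaffold subunits of the cap did not pass. Psmd1 had 273, 211 and 265 CPM with N6, 204, 212 and 296.5 with NSR, and 280, 223 and 147 with dT. Psmd2 had 110, 145 and 97.3 CPM with N6, 116, 92.0 and 137 with NSR, and 135, 152 and 76.3 with dT. Both ranges overlapped, and the log2 fold changes were 0.17 (SE 0.18) for Psmd1 and -0.05 (SE 0.21) for Psmd2, with adjusted p-values of 0.579 and 0.903. With library totals alone as scaling Psmd1 turned to -0.76 (adjusted p = 0.00367). The chaperones that help to assemble the cap did not pass either: Psmd5 had 0.21 (SE 0.39), Psmd9 -0.69 (SE 0.56) and Psmd10 -1.36 (SE 0.72).

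Length of the mRNA ran along with these differences. The 14 constitutive core subunits have most abundant entries of 766 to 1239 bases, and the 17 constitutive cap subunits 1316 to 3112 bases. Across the 37 tested genes the Spearman correlation of length and log2 fold change was 0.67, across the 20 cap genes it was 0.72, and across the 17 core genes 0.06. Genes are not independent replicates, and all values come from the same 9 libraries. The Spearman correlation with GC content was 0.00 over the 37 genes. Among all protein-coding genes tested, the correlation with length was 0.43 over 12529 genes. The 1203 protein-coding genes of 700 to 1300 bases had a median log2 fold change of -1.03, with 350 lower and 40 higher, those of 1300 to 2000 bases a median of -0.56 (1968 genes) and those of 2000 to 4500 bases a median of -0.04 (5977 genes). The 14 constitutive core genes thus lie in a length class whose median was also below 0, and the part of length in the difference was not tested.

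**Figure D2:**
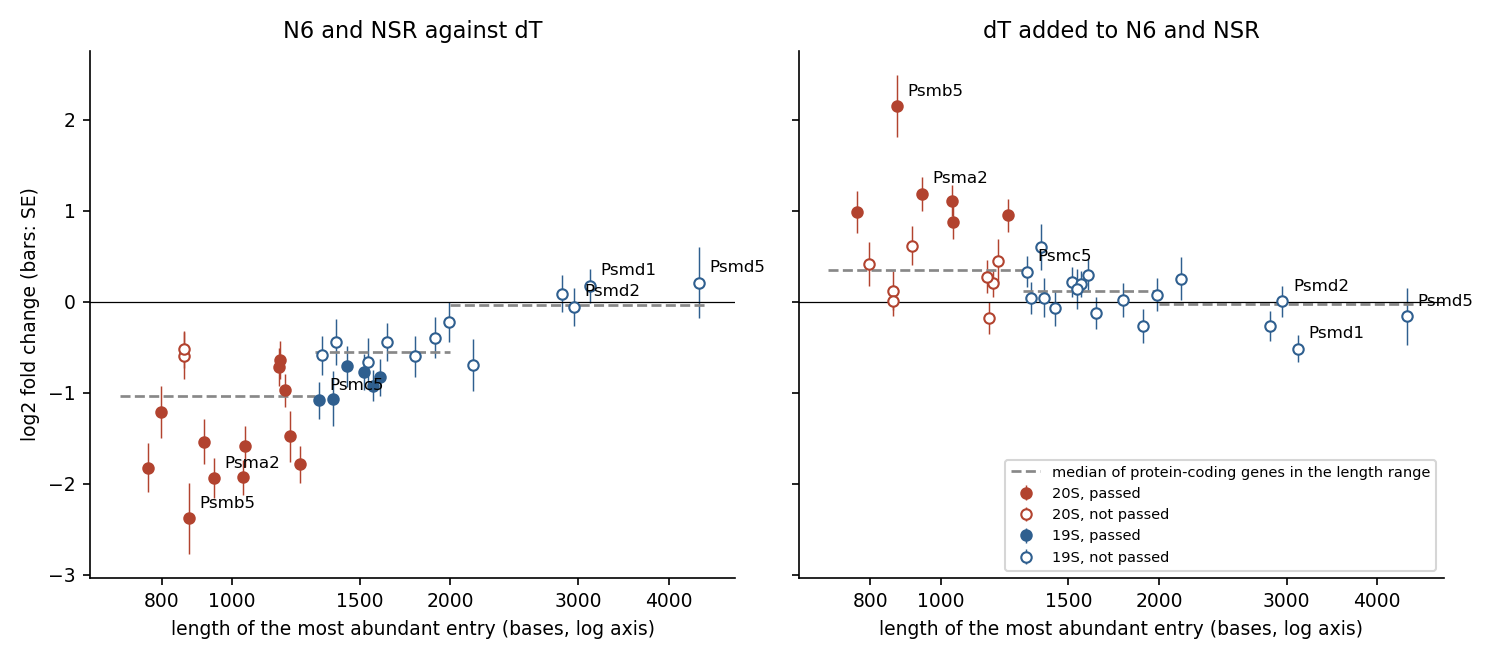
Log2 fold change (vertical axis, bars are SE) of 32 proteasome genes against the length of the most abundant entry (horizontal log axis), for random primers against dT (left) and for dT added to random primers (right). Filled points passed the test, and dashed lines are medians of protein-coding genes in 3 length ranges; Psma8, Psmb10, Psmb11, Psmd9 and Psmd10, of low level, are not drawn. Core genes (red) lie at -0.53 to -2.38 on the left, and the longest cap genes (blue) lie near 0.

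The count of 18 lower genes was 11 with protein-coding entries only (9 of the core and 2 of the cap) and 35 with library totals alone, which moved the median of all genes from 0.12 to -0.80. Relative to all genes, the median of the 37 genes was -0.85 under both scalings. A change of scaling moves all genes by about the same amount, so this is not a separate check.

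The next comparison asks what dT adds to a random primer: N6dT and NSRdT against N6 and NSR, in the same model and with the same random-primed libraries as above. Of the 37 genes 6 were higher, all of them core genes (DESeq2 also called Psmb10), against 1.80% of all genes tested. Of the 1203 protein-coding genes of 700 to 1300 bases, the length class of the constitutive core genes, 89 were higher. None of the 37 genes was lower (1 at an unadjusted p under 0.05, Psmd1, which DESeq2 called), against 0.376% of all genes. The median over the 37 genes was 0.21, over the 17 core genes 0.71, over the 20 cap genes 0.04 and over all genes -0.02. The 6 genes were Psma2 (1.19, SE 0.19, adjusted p = 0.0012), Psmb1 (1.11, SE 0.17, adjusted p = 0.000727), Psmb3 (0.99, SE 0.23, adjusted p = 0.0356), Psma5 (0.95, SE 0.18, adjusted p = 0.00551), Psma6 (0.88, SE 0.20, adjusted p = 0.0212) and Psmb5.

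Psma2 reached 74.2, 72.8 and 71.6 CPM with N6dT and 66.2, 68.6 and 64.8 with NSRdT, all above its highest level of 38.6 CPM with a random primer alone. Psmb5 had 17.04, 20.3 and 27.0 CPM with N6dT and 19.4, 28.6 and 24.0 with NSRdT, all above its highest level of 10.1 CPM with a random primer alone. The log2 fold change of Psmb5 was 2.15 (SE 0.35, adjusted p = 0.00125), and 1.46 (SE 0.22, adjusted p = 0.000579) with its copies summed. The call of Psmb3 ended in 10 of the 12 fits that left out 1 library, and that of Psma6 in 6 of the 12; Psma2, Psmb1, Psmb5 and Psma5 passed in all of them. The other proteolytic subunits did not pass, with 0.41 for Psmb6 and 0.28 for Psmb7 (adjusted p = 0.72 and 0.779).

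No cap gene passed when dT was added (2 of 20 at an unadjusted p under 0.05; DESeq2 called 1). Psmd1 had 244 ± 39.2 CPM over the 6 libraries with a random primer alone and 170 ± 13.7 CPM over the 6 with dT added (SD). These ranges did not overlap, but its adjusted p was 0.122 (log2 fold change -0.52, SE 0.15). Psmd6 had the highest log2 fold change of the cap, 0.60 (SE 0.25, adjusted p = 0.457), and Psmd2 had 0.01 (SE 0.17). Length and log2 fold change had a Spearman correlation of -0.52 over the 37 genes and of -0.22 over all protein-coding genes tested, and the median was 0.34 for protein-coding genes of 700 to 1300 bases.

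NSR against N6, over libraries with and without dT, asks whether the primers designed around ribosomal RNA sample these mRNAs differently. None of the 37 genes passed (2 at an unadjusted p under 0.05, none by DESeq2), against 0.0446% of all genes higher and 0.128% lower. The medians were -0.01 over the 37 genes and 0.01 over all genes. Psma3 had the highest log2 fold change, 0.55 (SE 0.17, adjusted p = 0.561), with 55.6, 55.0 and 83.0 CPM with N6, 91.6, 127 and 103 with NSR, 74.4, 74.3 and 70.9 with N6dT and 105, 95.6 and 82.9 with NSRdT. With library totals alone Psma3, Psma5, Psma6, Psmb1 and Psmb4 passed as higher with NSR, where the median of all genes moved from 0.01 to 0.42. The effect of dT did not differ detectably between NSR and N6 for any of the 37 genes (none passed by edgeR or DESeq2, 1 at an unadjusted p under 0.05, against 0.0446% of all genes in one direction and 0.0191% in the other), a contrast added after the data were seen.

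Each primer set was then set against bulk, in fits of 6 libraries that share the same 3 bulk libraries. Input amount, kit, ribosomal RNA removal and PCR cycles differ between RT-RamDA and bulk, and for every set except N6 the labelled primer differs too, so these cannot be told apart. With N6, 8 of 37 genes were lower than bulk and 1 higher, against 3.90% lower and 3.31% higher among all genes. The 8 were core genes: Psmb5 (-2.88), Psma5 (-1.48), Psmb6 (-1.40), Psmb1 (-1.24), Psmb3 (-1.16), Psma2 (-1.12), Psma7 (-0.85) and Psmb4 (-0.79). Psmb5 had 44.8, 43.1 and 42.9 CPM in bulk (SE 0.41 and adjusted p = 0.00779 for N6 against bulk), and its sum with copies was lower by less, at -1.96 (SE 0.23, adjusted p = 0.00352).

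With NSR, 7 of 37 were lower and 1 higher, against 4.65% and 4.01% of all genes. The 7 were Psmb5 (-3.28, SE 0.22, and -1.84, SE 0.17, with copies summed), Psmb3 (-1.87), Psma7 (-1.20), Psma2 (-1.12), Psmb7 (-0.87), Psmb1 (-0.73) and the ATPase Psmc5 (-0.82). The gene higher with both N6 and NSR was the scaffold Psmd1, with 142, 120 and 128 CPM in bulk. Its log2 fold changes were 0.95 with N6 (SE 0.13, adjusted p = 0.00701) and 0.88 with NSR (SE 0.17, adjusted p = 0.0238), and with library totals alone they turned to -0.42 and -0.13. Without bulk replicate 1, 2 or 3, lower genes numbered 2, 4 and 2 with N6, Psmb5 and Psmb1 in each, and 1 with NSR each time, Psmb5. Lower calls fell among all genes too. With N6 they were 189 of 15451, 216 of 15258 and 193 of 15319, against 593 of 15207 with all libraries. With NSR they were 204 of 15711, 236 of 15627 and 199 of 15694, against 717 of 15418. Psmd1 did not pass with N6 without bulk replicate 3, or with NSR without any one of the bulk libraries.

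With dT, 9 of 37 genes were higher than bulk and none lower (2 lower at an unadjusted p under 0.05, and 2 by DESeq2, Psmb5 and Psmb11), against 6.90% higher and 11.9% lower among all genes. The median was 0.50 over the 37 genes and -0.19 over all genes. The higher genes were Psma6 (1.07), Psma1 (0.99), Psmb1 (0.96), Psma2 (0.83) and Psma5 (0.71) in the core, and Psmc6 (1.08), Psmd14 (0.86), Psmd7 (0.72) and Psmd12 (0.61) in the cap. Psmc6 had 116, 158.5 and 145 CPM with dT and 69.8, 68.6 and 62.1 in bulk (SE 0.15, adjusted p = 0.00968). Psmb6 (0.02, SE 0.14) and Psmb7 (-0.01, SE 0.12) had values close to bulk, and Psmb5 had -0.69 (SE 0.20, adjusted p = 0.0647), or 0.14 (SE 0.15, adjusted p = 0.633) with its copies summed. Without bulk replicate 1, 2 or 3 the higher genes numbered 0, 2 and 0, and with library totals alone 3. Among all genes 223 of 16475, 431 of 16262 and 180 of 16311 were higher in the first 3 of these fits. With library totals alone 614 of 15708 were, against 1084 of 15708 in the main fit.

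With the mixtures the fewest genes passed against bulk. With N6dT, 1 of 37 genes was lower (Psmb5, -0.99, SE 0.21, adjusted p = 0.046) and none higher (3 at an unadjusted p under 0.05, 2 by DESeq2), against 2.09% and 2.70% of all genes. With the copies summed Psmb5 did not pass (-0.59, SE 0.13, adjusted p = 0.0535), and it did not pass without any one of the bulk libraries. With NSRdT none of the 37 passed in either direction (12 at an unadjusted p under 0.05; DESeq2 called 2 higher and 4 lower), against 2.69% higher and 2.58% lower among all genes. Medians were -0.07 with N6dT and -0.19 with NSRdT, against -0.03 and -0.04 over all genes. A p above the threshold does not show equal levels: Psmb6 had 41.0, 28.7 and 19.8 CPM with N6dT and 62.0, 55.2 and 57.4 in bulk, a log2 fold change of -0.93 (SE 0.26, adjusted p = 0.0923). With library totals alone 33 genes were lower with N6dT and 27 with NSRdT, where the medians of all genes were -1.23 and -0.75.

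GC content of the mRNA had negative correlations with the differences from bulk in every primer set, and the order of the sets depended on the genes taken. Over the 31 constitutive subunits the Spearman correlation was -0.76 with dT, -0.75 with N6dT, -0.73 with NSRdT, -0.43 with NSR and -0.30 with N6. Over all 37 tested genes it was -0.62 with dT, -0.54 with N6dT, -0.44 with NSR, -0.40 with NSRdT and -0.26 with N6, and over the 17 core genes alone it was -0.63 with NSR and -0.47 to -0.54 in the 3 groups with dT. Genes are not independent replicates and the comparisons share the bulk libraries, so these values are a description. Without bulk replicate 2, the values over the 31 subunits lay between -0.75 (dT) and -0.30 (N6). Length had values of -0.01 with dT, 0.41 with N6dT, 0.34 with NSRdT, 0.73 with N6 and 0.64 with NSR over the same 31 genes.

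**Figure D3:**
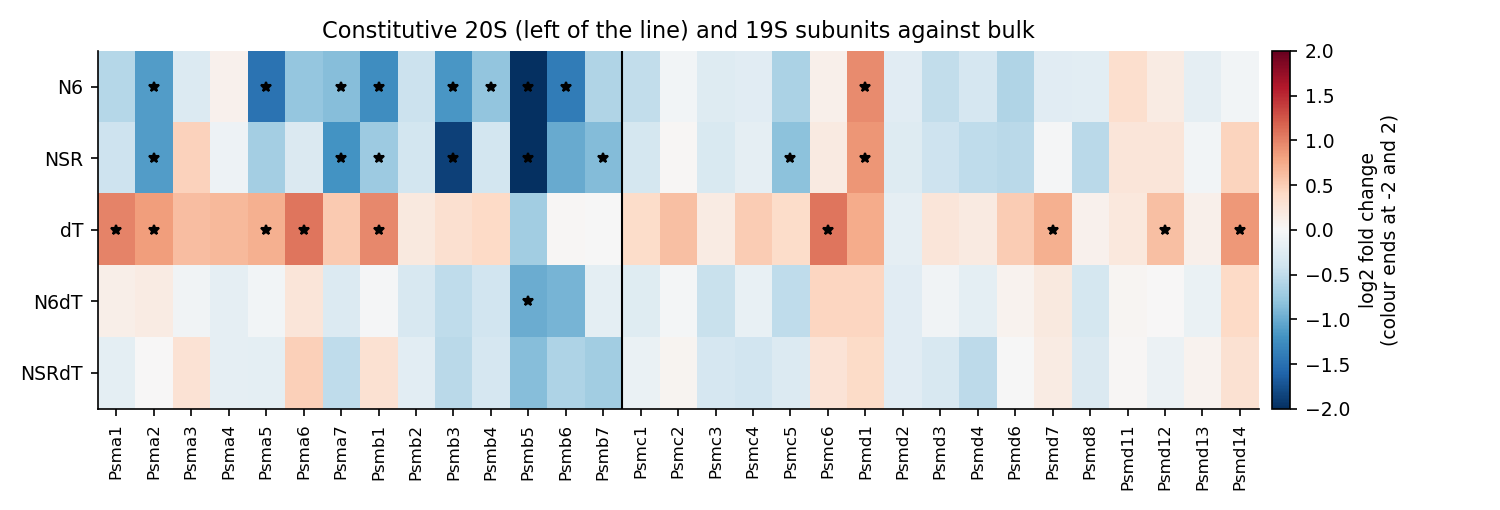
Log2 fold change against bulk (colour, blue lower and red higher, ending at -2 and 2) of the 31 constitutive subunits (columns) for the 5 primer sets (rows), with stars where the test was passed. The starred genes are those named in the text as passing, and colour is drawn for every gene whether or not it passed. Psmb5 lies beyond the colour range with N6 and NSR.

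Since subunits within the core, and within the cap, are present in equal numbers, their mRNA levels per length were set side by side within each group, as estimated count over entry length, scaled to 1000000 per library. In bulk, the 14 constitutive core subunits lay within 1.70-fold, from 107 for Psma1 to 182 for Psmb3. The same mRNAs spanned 3.38-fold with N6dT, 3.75-fold with NSRdT, 4.70-fold with dT, 11.3-fold with N6 and 19.3-fold with NSR, and Psmb5 was the lowest in these 5 groups. That rank and these spans rest on how reads were divided between Psmb5 and Gm3375. Gm3375 took 39.3% (N6dT) to 70.7% (NSR) of the summed estimate of Psmb5 and its copies in these groups. Levels per length with the copies summed were not computed. The N6 span depends on 1 library: without N6 replicate 2, where Psmb5 had 10.1 CPM, it was 19.97-fold, close to that with NSR. Without Psmb5 the spans were 4.55-fold with N6 (Psma5 lowest, Psma4 highest), 4.73-fold with NSR (Psmb3 lowest, Psma3 highest; 7.12-fold without NSR replicate 1), and from 2.18-fold to 2.63-fold in the 3 groups with dT. The 17 constitutive cap subunits spanned 1.93-fold in bulk, 2.05-fold with NSRdT, 2.17-fold with N6dT, 2.46-fold with dT, 3.75-fold with NSR and 3.92-fold with N6. Psmd3, a lid subunit, was the lowest of the cap in every group, at 69.5 in bulk, and Psmd1 was the highest with N6 and NSR, at 67.8 and 92.9.

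The chaperones Psmd5, Psmd9 and Psmd10, which are not part of the finished cap, lay below all 17 of these cap subunits in bulk, at 24.9, 13.6 and 10.7 per length. The spans depend on which entries are counted. With protein-coding entries only, the core spanned 2.73-fold in bulk, 3.70-fold with N6dT, 4.67-fold with dT, 4.72-fold with NSRdT, 8.56-fold with N6 and 10.6-fold with NSR. The cap then spanned 3.14-fold with NSRdT, 3.31-fold in bulk, 4.25-fold with dT, 4.33-fold with N6dT, 10.6-fold with N6 and 12.9-fold with NSR, so that bulk was no longer the narrowest group, and Psmd13 was the lowest cap subunit in all 6 groups. On these entries the N6 spans without N6 replicate 2 were 13.6-fold for the core and 18.5-fold for the cap.

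**Figure D4:**
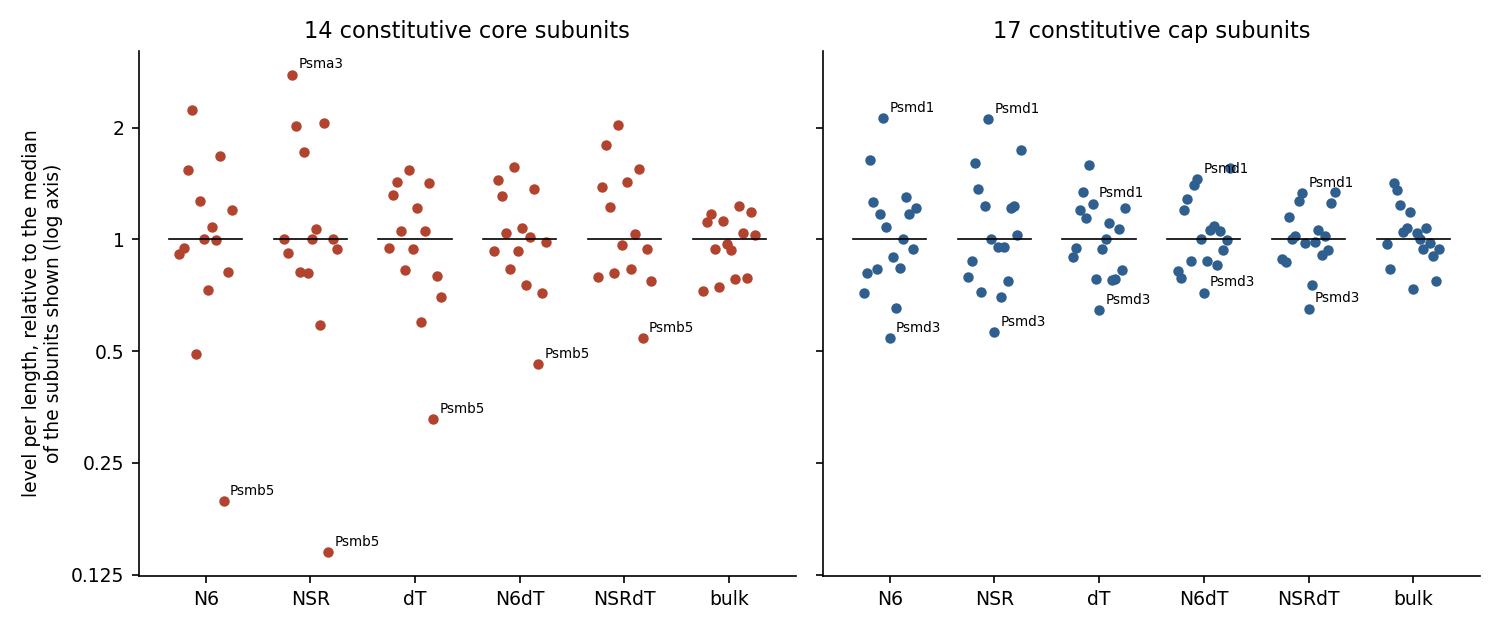
Level per length of each constitutive subunit relative to the median of the subunits shown (vertical log axis) in the 6 groups (horizontal axis), for the core (left) and the cap (right). Each point is 1 gene's mean over 3 libraries. Points lie closest together in bulk, and Psmb5, counted without Gm3375, lies lowest in every RT-RamDA group.

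The estimates also name transcript entries, 180 in all for the 39 genes, of which 73 are protein-coding. Entries of other kinds, such as retained introns, held 7.53% of the proteasome estimate with dT and 7.80% in bulk, 10.9% with N6dT, 12.0% with NSRdT, 12.2% with N6 and 14.8% with NSR. Among all protein-coding genes the shares were 9.09%, 10.2%, 11.5%, 11.7%, 13.6% and 13.7% in the same order. The shares of the proteasome genes lay within 3 percentage points of these. Single genes departed from them in both directions. Psmb4, a structural subunit of the beta ring, had 78.6% of its estimate on entries of other kinds with N6, 54.6% with N6dT, and 3.49% in bulk, which is below the shares of all genes and of the proteasome genes there. Psmd13, a lid subunit, had 74.9% with NSR, 32.5% with dT and 39.9% in bulk, and Psma3 had 25.9% with N6 and 56.6% in bulk. Psmb4 was chosen for a closer description after these values were seen. Its protein-coding mRNA, Psmb4-001, has 1183 bases in 7 exons. Psmb4-002 is an entry of 666 bases labelled as a retained intron (GRCm38, chr3:94884898-94886862). It shares 647 bases with the mRNA, ends in 19 intronic bases of its own and lacks the last 437 bases of the mRNA.
The point where the entries part is shown with 20 shared bases in lower case and the next bases of each in capitals, on the minus strand of GRCm38 as read from GENCODE vM21.
Psmb4-001: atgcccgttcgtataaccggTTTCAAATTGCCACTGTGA
Psmb4-002: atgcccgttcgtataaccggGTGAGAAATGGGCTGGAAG

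Psmb4-002 was assigned 81.2%, 73.9% and 79.7% of the Psmb4 estimate with N6 and 78.4%, 82.0% and 51.2% with NSR. It was assigned 47.1%, 53.5% and 51.6% with dT, 60.2%, 19.9% and 60.3% with N6dT, and 65.0%, 41.2% and 54.7% with NSRdT. In bulk it was assigned 0.408%, 1.29% and 0.789%. Every RT-RamDA library thus lay above every bulk library. With protein-coding entries only, Psmb4 had the lowest level per length of the core in the N6dT and NSRdT groups, at 83.1 and 78.6. The split between entries that share most of their sequence is an estimate, and the method that made it is not given in the sources used here, so these shares describe the deposited values and not measured isoforms.

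**Figure D5:**
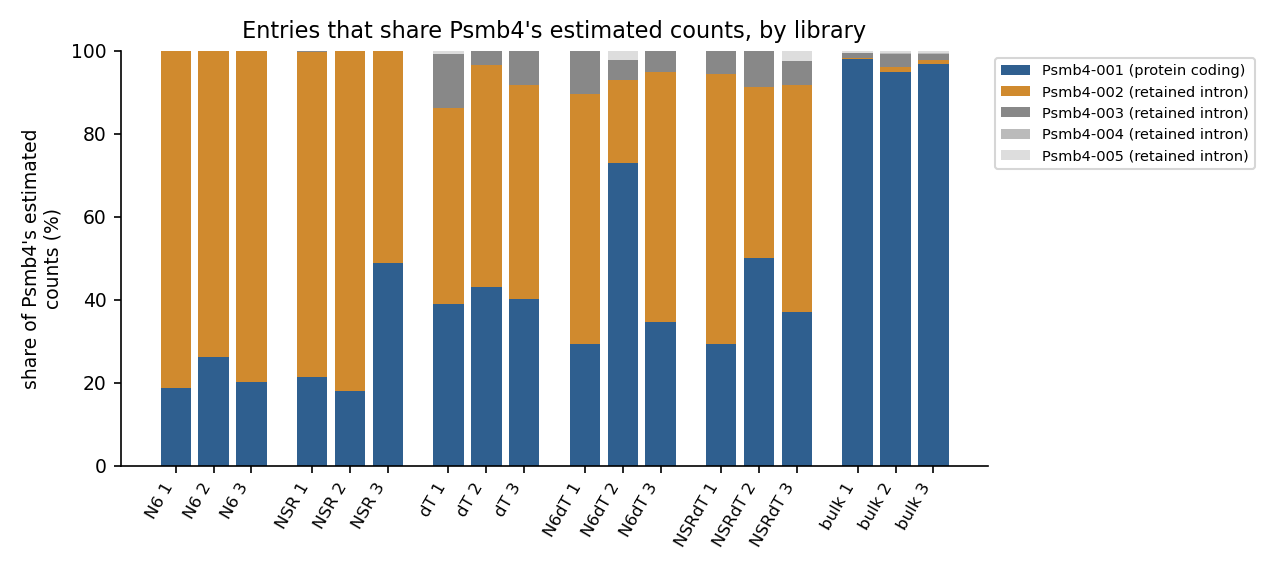
Share of the estimated counts of Psmb4 (vertical axis, percent) held by each of its 5 entries in the 18 libraries (horizontal axis). The retained-intron entry Psmb4-002 (orange) holds 19.9% to 82.0% in the RT-RamDA libraries and 0.408% to 1.29% in the bulk libraries.

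The inducible proteolytic subunits, which replace the constitutive ones in immunoproteasomes, were at or near 0 or at a few CPM. Psmb8 had 0 counts in every N6 and dT library, where a count of 0 allows at most 0.607 and 0.216 CPM, and at most 0.715 CPM in any library. Psmb9 was at 0 counts in 10 of the 18 libraries and had 0.355, 0.419 and 0.662 CPM in bulk. Its highest level, 3.62 CPM in dT replicate 2, stood against 0 in both other dT libraries. Exons of Psmb9 overlap Tap1 on the other strand. Psmb10 had 7.62, 2.78 and 4.80 CPM with dT, 0.786, 0 and 0 with N6, 1.38, 0 and 0.880 with NSR, and 3.08, 1.61 and 2.95 in bulk. The ranges of Psmb10 with random primers and dT were apart, and the log2 fold change of -3.45 (SE 1.17, adjusted p = 0.0546) did not pass. When dT was added to random primers, Psmb10 had the highest log2 fold change of the core, 3.09, which passed by DESeq2 but not by edgeR. With N6 against bulk it had the lowest of the core, -3.19, and did not pass by edgeR.

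Of the tissue-restricted subunits, Psma8, known from testis, had 1.05 to 16.8 CPM over the 18 libraries and 6.57, 5.44 and 4.75 CPM in bulk. Psmb11, known from the thymus, had 0 to 6.75 CPM, and 2.01, 2.51 and 3.01 CPM in bulk. Neither passed in any comparison by edgeR. Psmb11 had the highest log2 fold change of the core with random primers against dT, 2.73, and the lowest with dT against bulk, -3.35. Counting error and shared sequence limit what can be read from levels as low as these.

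Other genes of the pathway were taken from 2 lists. Of 20 listed regulators and assembly factors 19 were found and tested, and with random primers 6 were lower than with dT and 1 higher (median -0.86), against 7.54% lower and 9.54% higher among all genes. Lower genes numbered 2 to 5 when 1 library was left out, with 2 without dT replicate 1 and 3 without dT replicate 2 or 3. Shfm1, which encodes a very small cap subunit and has a most abundant entry of 1472 bases, had 7.86, 13.4 and 15.7 CPM with N6, 6.59, 2.49 and 2.20 with NSR and 38.5, 73.3 and 67.2 with dT, a log2 fold change of -3.13 (SE 0.36, adjusted p = 1.15e-05). It rose by 1.97 (SE 0.32, adjusted p = 0.0013) when dT was added, the only gene of this list that passed there by edgeR, against 1.80% of all genes higher. Psme4, an activator that binds the end of the core, was higher with random primers, by 0.88 (SE 0.15, adjusted p = 0.00064), with a most abundant entry of 6491 bases. The other lower genes, named after their values were seen, were Psme2, Psmg1, Adrm1, Pomp and Akirin2. Of 12 genes of ubiquitin supply and delivery 1 was lower, Ubb (-0.66, SE 0.10, adjusted p = 0.000241), a share close to the 7.54% of all genes, and the median was -0.06.

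Against bulk, the regulators had 1 higher and 1 lower gene with N6, 0 and 3 with NSR, 5 and 1 with dT, and 0 and 0 with both mixtures by edgeR. The shares of all genes higher and lower were 3.31% and 3.90% with N6, 4.01% and 4.65% with NSR, and 6.90% and 11.9% with dT, so 1 of 19 in a direction is close to them. Without bulk replicate 1, 2 or 3, none of these genes passed, except Psme4, lower with dT without bulk replicate 2. In such fits fewer of all genes passed too. Without 1 library of the primer set, higher and lower genes numbered 1 to 3 and 1 to 4 with N6 (the most without N6 replicate 1), 0 to 1 and 3 to 4 with NSR, 5 to 7 and 1 to 3 with dT, and at most 1 and 2 with the mixtures. Of the ubiquitin genes, Uba6, an activating enzyme, was higher than bulk with NSR (1.59), dT (1.27), N6dT (1.12) and NSRdT (0.80), with adjusted p-values of 0.0142 to 0.0491, and had 0.59 with N6 (adjusted p = 0.297). In bulk it had 64.0, 59.9 and 60.6 CPM. These calls ended when any one bulk library was left out, while the log2 fold changes moved little. Without bulk replicate 2 they were 1.56, 1.25, 1.10 and 0.77 in the same order, with adjusted p-values of 0.0664 to 0.205. The NSR call also ended without NSR replicate 2, and the N6dT call without N6dT replicate 1 or 2. Fewer of all genes passed without a bulk library too. Without bulk replicate 2, genes called higher fell from 619 to 207 with NSR, 1084 to 431 with dT, 411 to 138 with N6dT and 419 to 146 with NSRdT.

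Replicate libraries differed least in bulk. Among genes of 10 CPM or more in bulk, the median coefficient of variation (CV) of 14 core genes was 0.0442 in bulk, 0.0957 with N6dT, 0.159 with NSRdT, 0.199 with N6, 0.212 with dT and 0.241 with NSR. For 19 cap genes it was 0.0440 in bulk and 0.154 to 0.193 with the primer sets. Over all 7621 such genes the medians were 0.0732 in bulk and 0.266 to 0.347 with the primer sets. The highest CV of these 19 was that of Psmd5 with N6dT (0.628) and of Psmd9 in the other 5 groups (0.134 in bulk, 0.635 with dT). These assembly chaperones also had the lowest levels of the 19 in bulk, 33.6 CPM for Psmd5 and 11.8 CPM for Psmd9. The part of low level in their CV was not tested. Psmd10, at 6.565 CPM in bulk, was below the limit of 10 CPM.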

How the data were processed

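The authors' deposited table holds estimated counts (expected counts per transcript entry, not whole numbers) for 115125 entries in 18 libraries, named by GENCODE identifiers per the file headers. The submitters' processing notes name bcl2fastq 2.16.0.10 and mm10. The steps from reads to counts, including aligner, quantifier and strand setting, were not given in the sources used here. 92 spike-in entries were left out. Estimates were summed per gene and rounded. edgeR 4.0.16 in R 4.3.3 fitted the 15 RT-RamDA libraries together and each primer set with bulk on 6 libraries (TMM, filterByExpr, quasi-likelihood F test, two-sided, no replicate block). The tests were checked on simulated counts, where they called few unchanged genes and missed most of the changed ones, so a gene that did not pass may still differ. The simulation gave all groups the same mean profile and drew the changed genes from all genes tested. It therefore covers neither the differences in composition between primer sets nor the levels of the proteasome genes in particular. DESeq2 1.42.0, library totals alone, no low-count filter, omission of ribosomal and mitochondrial genes, protein-coding entries only, a replicate block, leaving out each library and, against bulk, all 18 libraries in one fit were the alternatives. Sums of genes with their copies (genes elsewhere that share 10% or more of the 31-base stretches of the most abundant entry) and the NSR by dT contrast were added after the data were seen.

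Proteasome members and all lists were chosen with earlier results of these data known. Named were the proteolytic, inducible and tissue-restricted subunits, Psmd4, Psmd1, Psmd2, Psmd14, Psmd5, Psmd9 and Psmd10. The 2 highest and 2 lowest genes of core and cap per comparison were also to be named, but not all of them are given. Other called genes are listed in full where named. The length ranges were set after the lengths of the members were known. Sequences, overlaps and shared stretches come from GENCODE vM21 (GRCm38). The 31-base search, tables and figures used Python 3.11.15, pandas 2.3.3, scipy 1.17.1 and matplotlib 3.10.9. The floor for a count of 0 is 3 counts and covers counting error only.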

Additional observations from a re-analysis of the deposited data

How the results depend on the processing

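With library totals alone, genes called lower numbered 35 (random primers against dT), 36 (N6 against bulk), 33 (NSR), 1 (dT), 33 (N6dT) and 27 (NSRdT). Genes called higher than bulk numbered 3 (dT), 0 (N6) and 0 (NSR), and 5 were higher with NSR than with N6. Of all genes tested, 4330 of 15682 were then lower for random primers against dT. Against bulk 8585 of 15207 (N6), 5946 of 15418 (NSR), 2196 of 15708 (dT), 7988 of 15234 (N6dT) and 3762 of 15553 (NSRdT) were lower. Those higher than bulk were 614 (dT), 141 (N6) and 180 (NSR), and 528 were higher with NSR than with N6. The direction turned for Psmd1 in random primers against dT (-0.76), for Psma4 (-1.28), Psmd1 (-0.42), Psmd11 (-1.03) and Psmd5 (-1.10) with N6, for Psma3 (-0.55), Psmd1 (-0.13) and Psmd14 (-0.55) with NSR, and for Psmc6 (-0.78), Psmd1 (-0.77) and Psmd14 (-0.80) with N6dT, all against bulk. The scaling alone differs there. DESeq2 gave 1 lower gene for dT added, 4 higher with NSR, 2 lower with dT, 2 higher and 4 lower with N6dT and 2 higher and 4 lower with NSRdT. Without the low-count filter the counts were 1 lower for dT added, 0 higher and 4 lower with NSR and 0 lower with N6dT. With protein-coding entries only they were 11 lower for random primers against dT, 1 lower with dT, 0 lower with N6dT and 1 lower with NSRdT. With copies summed, and with all 18 libraries in one fit, N6dT had 0 lower. The cause of these moves was not tested.

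Replicate numbers did not pair the libraries: same-numbered libraries had residual correlations of -0.0423 to 0.0392 (5487 genes), and 2 of 18 libraries had their highest correlation with a library of the same number. A block for the number gave 2 lower with NSR (1 higher), 2 higher with dT and 0 lower with N6dT, all against bulk, and 17 lower for random primers against dT.

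Leaving out 1 library in turn gave 15 to 18 lower for random primers against dT and 4 to 6 higher for dT added. Against bulk it gave 0 to 1 higher and 2 to 14 lower with N6, 0 to 3 and 1 to 12 with NSR, 0 to 12 and 0 to 2 with dT, 0 to 1 and 0 to 3 with N6dT, and 0 to 2 and 0 to 7 with NSRdT. The lowest counts came from fits without a bulk library, in which fewer of all genes passed too.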
